A study of Homo sapiens with 18 samples.

Results

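The control hairpin cells of a pair of knockdown experiments in 786-O cells were compared with each other. The members are the 6 libraries whose titles name a control hairpin (shCtrl), 3 from the USP13 experiment and 3 from the ZHX2 experiment, out of 18 libraries in all. The other 12 libraries hold 3 replicates each of the hairpins sh50 and sh52 against USP13 and sh43 and sh45 against ZHX2. 786-O is an established line from a clear-cell renal carcinoma, grown here in DMEM with serum, and every group of the series is of this line. Both control sets carry the same labels for cell line, condition and hairpin, and only their titles assign them to different experiments. The labels' treatment text names hairpins 43 and 45 under USP13, whereas the titles place them under ZHX2, and the titles are followed here. RNA was extracted with column kits and made into unstranded mRNA libraries. The sequence of the control hairpin, and whether it was the same in both experiments, is not given in the sources used here. Whether the replicates were separate cultures is not given either, so that the p-values speak only to the spread among these libraries, a spread that may be technical. The names of the deposited files carry a different suffix in each experiment. Experiment, culture state, library preparation and sequencing run therefore cannot be told apart as sources of any difference between the control sets.

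Clear-cell renal carcinoma arises from proximal tubule epithelium and as a rule loses VHL, the substrate receptor of a ubiquitin ligase that marks hypoxia-inducible factors (HIF) for destruction. In cells without functional VHL these factors are active in ambient oxygen and drive genes of angiogenesis, glucose uptake and glycolysis. 786-O cells carry a mutated VHL and are known to rely on HIF2A (the product of EPAS1), since they make no functional HIF1A protein. ZHX2, a transcription factor with zinc fingers and homeodomains, is a known substrate of the VHL protein, and USP13 removes ubiquitin from its substrates. A control hairpin is meant to give the state of the cells without a knockdown, and the state of these controls is the reference against which each experiment reads its own hairpins.

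The 6 control libraries held between 12657543 and 15990217 estimated read counts, and the depths of the sets overlapped (exact permutation test over 3 against 3 libraries, two-sided, p = 0.9, where 0.1 is the smallest p this design allows). Several library measures did separate them without overlap. The mitochondrial ribosomal RNAs took 2.62 ± 0.078% of counts in the USP13 control and 1.25 ± 0.072% in the ZHX2 control (SD, n = 3 each; exact permutation p = 0.1, 0.175 after Benjamini-Hochberg adjustment over 7 measures). The mean fragment length, read from the deposited effective lengths, was 294 ± 0.64 bases in the USP13 control and 273 ± 8.1 bases in the ZHX2 control (same p values). Log2 levels correlated at 0.991 to 0.993 between libraries of the USP13 control, at 0.991 to 0.992 within the ZHX2 control and at 0.944 to 0.948 between the sets. No pair of libraries held identical values.

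The cells were first described by level, in TPM, a unit scaled to library depth and by transcript length that allows different genes to be compared. A mean TPM of at least 1 was reached by 12926 genes, at least 100 by 1540 genes and at least 1000 by 142 genes. The highest mean TPM belonged to the mitochondrial ribosomal RNA MT-RNR2, followed by TMSB10, which binds actin monomers, the ferritin light chain FTL, and RPS27 and RPLP1 of the ribosome. VIM, the intermediate filament of mesenchymal cells, stood at 3386 ± 121 TPM in the USP13 control and 3390.2 ± 58.6 in the ZHX2 control (SD, n = 3 each). CDH1, the epithelial cadherin, stood at 0.376 ± 0.207 and 0.286 ± 0.129 TPM. Other epithelial genes differed widely in level. Of 24 listed genes of epithelial junctions and keratins 18 passed the filter on low counts. GRHL2, ESRP1 and CLDN7 did not, with at most 13 counts in any control library. The keratin KRT8 stood at 721 ± 17.7 and 497 ± 10.9 TPM, KRT19 at 90.6 ± 4.06 and 104 ± 1.96 TPM and the claudin CLDN4 at 98.6 ± 5.3 and 152 ± 2.84 TPM. Matrix and mesenchymal genes ranged as widely, and 25 of 34 listed passed the same filter. FN1 stood at 1332 ± 115 and 1532 ± 242 TPM and SPARC at 406 ± 17 and 368 ± 3.6 TPM. By contrast, POSTN, DCN and TWIST1 were listed at 0 in all 6 libraries, and the mean TPM of COL1A2 and COL3A1 was at most 0.0215 in either set.

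Some transcripts of the renal lineage were present in both sets and others were listed at 0. PAX8, a transcription factor of this lineage, stood at 219 ± 5.53 TPM in the USP13 control and 164 ± 8.34 in the ZHX2 control. LRP2, SLC22A6 and SLC22A8, receptor and transporters of the mature proximal tubule, were listed at 0 in all 6 libraries, as were the nephron factors SIX2 and EMX2. Glycolytic LDHA reached 1547 ± 92.6 and 1513 ± 36.2 TPM, and VHL itself 21.3 ± 1.67 and 21.4 ± 1.9. CDKN2A and CDKN2B, which encode inhibitors of the cell cycle, were listed at 0 in all 6 libraries. A listed 0 can be a failed estimate and is not by itself proof of absence.

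Markers of endothelial cells and leukocytes mostly fell below the filter on low counts, and those of fibroblasts and pericytes did so in part. All 12 endothelial markers fell below the filter on low counts, with PECAM1 listed at 0, and their summed level lay between 0.766 and 1.60 CPM (counts scaled to the library total) in the USP13 control and between 0.898 and 1.35 in the ZHX2 control. Of 16 leukocyte markers only CD68, which many cell types express, passed the filter, at 30.2, 27.4 and 30.8 CPM in the USP13 control and 37.8, 46 and 43.5 CPM in the ZHX2 control. PTPRC, the pan-leukocyte phosphatase, had at most 2 counts in a library. Of 12 fibroblast and pericyte markers 7 passed, with summed levels of 31.3 to 36.2 CPM in the USP13 control and 43.3 to 45.5 CPM in the ZHX2 control, to which ACTA2 gave 22.9, 17.9 and 23.1 CPM and 27.3, 29.1 and 29.3 CPM.

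The question put to the control sets was how far their gene expression differed. Levels below are in CPM scaled with edgeR's TMM factors, differences are log2 of the USP13 control over the ZHX2 control with their standard error, and the test is edgeR's quasi-likelihood F-test with Benjamini-Hochberg adjustment over all 13486 genes tested. "Higher" and "lower" refer to the USP13 control and are used for genes with an adjusted p under 0.05. Of the genes tested, 7723 (57.3%) differed, 3850 (28.5%) of them higher and 3873 (28.7%) lower. The difference was at least 2-fold for 1457 genes (10.8%), of which 744 (5.52%) were higher and 713 (5.29%) lower. The median absolute log2 difference over all tested genes was 0.31, and the median signed difference was 0.009. The CPM ranges of the sets did not overlap for 8430 genes (62.5%). The member counts below are to be read against these shares, since most genes passed the test.

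**Figure D1:**
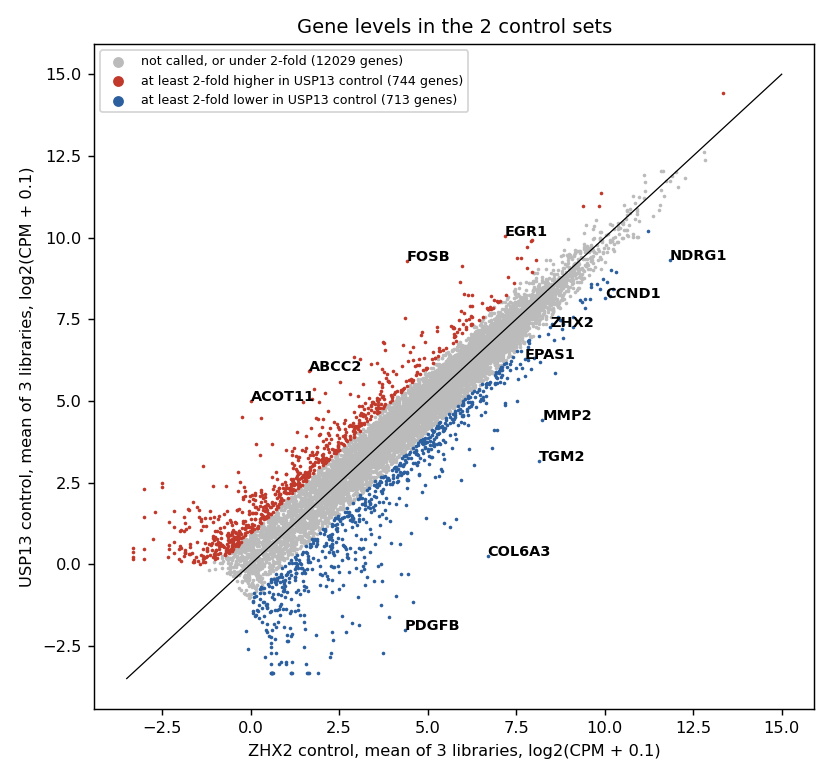
Mean level of each of 13486 tested genes in the ZHX2 control (x axis) and the USP13 control (y axis), as log2(CPM + 0.1) over 3 libraries each, with the line of equality. Red points are the 744 genes at least 2-fold higher in the USP13 control and blue points the 713 at least 2-fold lower. FOSB and ACOT11 lie far above the line, COL6A3, TGM2 and PDGFB far below it.

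The genes of each experiment's own target were checked next, with the same genes in the knockdown libraries. ZHX2 was lower in the USP13 control, at 155, 146 and 155 CPM against 350.3, 355 and 355 CPM (log2 difference -1.22 ± 0.054, adjusted p = 2.13e-14). The sets did not overlap, and the mean of the USP13 control lay between the ZHX2 control and the knockdown libraries of the ZHX2 experiment. In a fit of all 18 libraries mean ZHX2 was 349 CPM in the ZHX2 control, 149.7 CPM in the USP13 control, 86.7 CPM under sh45 and 41.7 CPM under sh43. USP13 was lower in the USP13 control as well, at 36.3, 34.2 and 31.3 CPM against 41.5, 40.3 and 46.2 CPM (log2 difference -0.33 ± 0.086, adjusted p = 0.00245). Of the relatives of these genes, USP5 was lower (log2 difference -0.47 ± 0.065, adjusted p = 2.48e-06) and ZHX1 higher (log2 difference 0.33 ± 0.085, adjusted p = 0.00227), while ZHX3 did not pass the test (log2 difference -0.02 ± 0.071, adjusted p = 0.821).

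The genes with the largest differences between the control sets were of several kinds. Among the 15 with the largest positive difference (called, at least 2-fold, without overlap and with a mean of at least 10 CPM in the higher set), ACOT11, an acyl-CoA thioesterase, stood at 29, 32.9 and 33.6 CPM in the USP13 control and 0.788, 0.674 and 1.27 CPM in the ZHX2 control (log2 difference 5.1 ± 0.18, adjusted p = 3.05e-16). ABCC2, an efflux pump of the apical membrane of the proximal tubule, stood at 58.4, 64.1 and 60.02 CPM against 2.92, 3.14 and 2.97 CPM (log2 difference 4.33 ± 0.11, adjusted p = 2.65e-18). DDC, the decarboxylase that makes dopamine in the tubule, was higher too (log2 difference 4.28 ± 0.13, adjusted p = 3.72e-17). FOSB, FOS and DUSP6 of the immediate early response were in the same group, with TSPAN1, DHRS9, UNC13C, PLEKHA7 and the histone gene H2BC21. NPIPB3, NPIPB5 and BCRP3 also met the rule, but they belong to families of near-identical copies between which reads can be split, and their values are uncertain.

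The 15 with the largest negative difference are given next. COL6A3, a chain of collagen VI, stood at 0.766, 1.42 and 1.1 CPM in the USP13 control and 109, 88 and 114 CPM in the ZHX2 control (log2 difference -6.52 ± 0.15, adjusted p = 5.02e-19). PDGFB, the B chain of platelet-derived growth factor and a known target of HIF, stood at 0.153, 0.0617 and 0.235 CPM against 21.6, 19.8 and 19.7 CPM, too few counts in the USP13 control for a fold. TGM2, a transglutaminase that cross-links matrix proteins, stood at 8.12, 9.31 and 9.18 CPM against 275, 288 and 281 CPM (log2 difference -4.98 ± 0.078, adjusted p = 5.97e-22). For these genes the USP13 control was near the limit of counting or far under the ZHX2 control in every library. IGFBP4, which binds insulin-like growth factors, had 2 counts over the whole USP13 control, in 1 library, and 13.6, 14.7 and 11.5 CPM in the ZHX2 control. The others were CTHRC1, ADAMTS5, STC2, CXCL5 and SAA2, which are secreted, and SLC38A5, CDH13, SORCS2, SYT13, CLDN1 and PEG10.

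DNA replication genes were lower in the USP13 control almost as a block. Cells that enter S phase switch on the genes of replication licensing and nucleotide synthesis through E2F transcription factors. Of 28 listed genes, all tested, 27 were lower and 1 was higher, 20 of them at least 2-fold lower, with a median log2 difference of -1.21 (all tested genes: 28.7% lower, median 0.009). MCM7, a subunit of the replicative helicase, stood at 72.2, 81.9 and 85.8 CPM in the USP13 control and 261, 261 and 254 CPM in the ZHX2 control (log2 difference -1.69 ± 0.065, adjusted p = 1.59e-15). E2F1 itself stood at 13.6, 15.5 and 17.8 CPM against 51.4, 59.1 and 52.9 CPM (log2 difference -1.8 ± 0.099, adjusted p = 1.04e-12). The sets did not overlap for either gene. The licensing factor CDC6 (-1.59), the helicase activation factor MCM10 (-1.62) and the helicase cofactor CDC45 (-1.61) showed log2 differences of like size. POLE2, the second subunit of polymerase epsilon, was the exception, at 6.59, 6.23 and 6.35 CPM against 5.2, 4.64 and 4.39 CPM (log2 difference 0.43 ± 0.17, adjusted p = 0.0403). The POLE2 call was lost in 9 of 15 alternative settings, among them without any 1 of the USP13 control libraries and without replicate 2 or 3 of the ZHX2 control, and over the 15 the adjusted p from edgeR or DESeq2 lay between 0.0346 and 0.125.

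Promoters of 2 of these genes are shown because E2F factors are known to control the list. RefSeq promoter windows (build GRCh38.p14, 250 bases before to 50 after the start) were found for 24 of the 28 genes, and 16 of the 24 (66.7%) held TTTCCCGC or TTTGGCGC, E2F sites, on either strand. Of 27305 genes with a window 2.75% held such a match, and of the tested genes with a window 4.58%. The bases before the start of E2F1 (chr20:33686386-33686475, minus strand) and of MCM7 (chr7:100101510-100101599, minus strand) are given in the direction of the gene, with the match in capitals.
E2F1: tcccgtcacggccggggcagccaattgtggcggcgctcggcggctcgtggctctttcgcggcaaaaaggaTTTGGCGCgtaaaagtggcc
MCM7: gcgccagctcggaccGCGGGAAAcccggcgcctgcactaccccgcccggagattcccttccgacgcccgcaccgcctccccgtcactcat
A match describes the letters in the window, and binding was not measured.

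Mitotic genes were lower in the USP13 control without exception among those listed. They peak after replication, and many are held down in resting cells by repressor complexes at a promoter element called the cell cycle gene homology region. All 26 listed genes were tested and were lower, 7 of them at least 2-fold, with a median log2 difference of -0.84. In bulk RNA, fewer dividing cells and less mitotic transcript per cell cannot be told apart. TOP2A, the topoisomerase that untangles chromosomes, stood at 131, 144 and 118 CPM in the USP13 control and 344, 310.2 and 356 CPM in the ZHX2 control (log2 difference -1.36 ± 0.069, adjusted p = 2.74e-13). AURKB, the kinase of the chromosomal passenger complex, stood at 9.12, 15 and 11 CPM against 29.6, 32.2 and 28.6 CPM (log2 difference -1.35 ± 0.13, adjusted p = 1.34e-08). Both genes separated the sets in every library. The centromeric histone CENPA (-1.65) and the passenger protein BIRC5 (-1.27) showed log2 differences of the same sign. The letters TTTGAA stood in the windows of 14 of 21 members with one (66.7%), of 18.2% of all genes with a window and of 13.4% of the tested ones. CENPA (chr2:26785966-26786055, plus strand) is shown with them in capitals.
CENPA: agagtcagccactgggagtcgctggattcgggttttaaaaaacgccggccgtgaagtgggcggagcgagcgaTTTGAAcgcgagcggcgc

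Of 16 tested G1 cyclins, kinases and inhibitors 10 were lower, 1 was higher and 5 did not pass the test, with a median of -0.55. CCND1, the D-type cyclin that HIF2A is known to drive in this cancer, stood at 282, 267 and 296 CPM in the USP13 control and 1025, 1014 and 1041 CPM in the ZHX2 control (log2 difference -1.87 ± 0.051, adjusted p = 5.14e-18). CDK2 was lower (log2 difference -1.19 ± 0.086, adjusted p = 1.13e-10) and so was CDK4 (log2 difference -0.77 ± 0.062, adjusted p = 6.11e-10), whereas CCND3 was higher (log2 difference 0.32 ± 0.078, adjusted p = 0.00123). The replication-dependent histone genes, whose transcripts mostly end in a stem-loop in place of a poly(A) tail, moved the other way: 7 of 9 tested were higher and none lower, with a median of 1.18. The 17 listed genes took a trace of all counts, 0.0157 ± 0.00032% in the USP13 control and 0.0067 ± 0.00041% in the ZHX2 control. That is a ratio of 2.35 (exact permutation p = 0.1, 0.175 after Benjamini-Hochberg adjustment over 7 measures). H1-2 stood at 27.1, 27.6 and 30.4 CPM against 7.8, 12.5 and 10.8 CPM (log2 difference 1.45 ± 0.13, adjusted p = 3.43e-09).

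**Figure D2:**
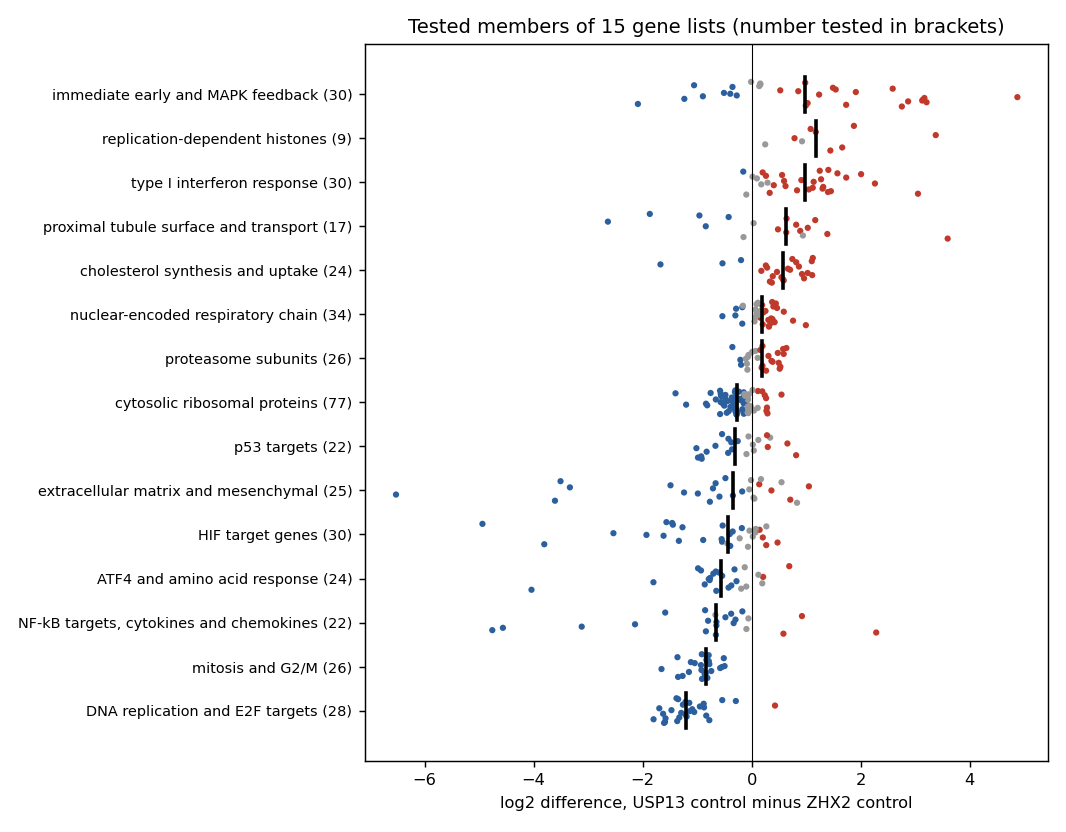
Each point is a tested gene of 1 of 15 lists, placed by its log2 difference between the USP13 control and the ZHX2 control (x axis), and the black bar is the median of the list. Red points were higher in the USP13 control, blue points lower, and grey points did not pass the test. Mitotic and replication genes lie to the left of 0 with a single exception, and interferon genes mostly to the right.

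Several genes of oxygen sensing were lower in the USP13 control. EPAS1, which encodes HIF2A, stood at 78.7, 78.4 and 77.8 CPM in the USP13 control and 214, 211 and 222 CPM in the ZHX2 control (log2 difference -1.46 ± 0.059, adjusted p = 3.93e-15). HIF1A stood at 17.2, 18.6 and 17 CPM against 32.2, 37.4 and 32.6 CPM (log2 difference -0.95 ± 0.096, adjusted p = 2.71e-08). Both genes were lower in every USP13 control library than in any ZHX2 control library. Of the prolyl hydroxylases that mark HIF for VHL, EGLN3 was lower (log2 difference -1.54 ± 0.067, adjusted p = 1.87e-14), EGLN2 was lower (-0.66 ± 0.099, adjusted p = 7.21e-06) and EGLN1 did not pass the test (0.11 ± 0.068, adjusted p = 0.174). The transcript of VHL stood at 55.1, 57.8 and 51.4 CPM against 52.2, 53.2 and 59.4 CPM (log2 difference 0.00 ± 0.077, adjusted p = 0.974), with overlapping ranges. Of its complex, CUL2 was higher (0.24 ± 0.07, adjusted p = 0.00507), and the elongins ELOB and ELOC did not pass the test (0.12 ± 0.069 and 0.04 ± 0.063). In all, 6 of 13 tested genes of oxygen sensing were lower, 2 were higher and 5 did not pass the test. The median of this list was -0.004, and its sign changed in 4 alternative settings.

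The target genes followed the same direction in part. Of 30 tested HIF targets 18 were lower, 10 of them at least 2-fold, and 4 were higher, with a median of -0.42. NDRG1, a hypoxia marker, stood at 637, 589 and 661 CPM in the USP13 control and 3523, 3734 and 3675 CPM in the ZHX2 control (log2 difference -2.53 ± 0.049, adjusted p = 1.48e-20). VEGFA, the angiogenic growth factor, stood at 191, 173 and 200.1 CPM against 542, 548 and 574 CPM (log2 difference -1.56 ± 0.058, adjusted p = 8.74e-16). The sets were apart by more than 2-fold for both. The matrix oxidase LOXL2 (-1.93) and ANGPTL4 (-3.8), a lipase inhibitor, had log2 differences below -1, while BNIP3 of mitophagy (0.48) and ALDOA of glycolysis (0.27) were higher. CA9, CXCR4 and COXFA4L2 did not pass the filter, with CA9 at 0, 2 and 0 counts in the USP13 control and 11, 3 and 12 in the ZHX2 control. The core letters ACGTG of the hypoxia response element stood in the windows of 64.3% of 28 members, of 24.9% of all genes with a window and of 32.4% of the tested ones. This motif is short enough to be frequent.

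Interferon-stimulated genes were mostly higher in the USP13 control. Type I interferon acts through a complex of transcription factors that binds a promoter element and raises a set of antiviral genes. Of 30 listed genes, all tested, 24 were higher, 15 of them at least 2-fold, and 1 was lower, with a median of 0.98 (all tested genes: 28.5% higher). ISG15, a ubiquitin-like modifier, stood at 293, 301 and 336 CPM in the USP13 control and 64.2, 70.3 and 59.1 CPM in the ZHX2 control (log2 difference 2.26 ± 0.071, adjusted p = 5.68e-17). IFIT3, an antiviral protein of the IFIT family, stood at 149, 154 and 142 CPM against 60.4, 57.1 and 61.3 CPM (log2 difference 1.31 ± 0.065, adjusted p = 1.48e-13). The sets did not overlap for either gene. IFI27 had the largest difference of the list (log2 difference 3.05 ± 0.14, adjusted p = 2.19e-14), and the antiviral enzyme RSAD2 (2.01) and OASL (1.74) came after ISG15. TAP1, the peptide transporter that also belongs to antigen presentation, was lower (log2 difference -0.15 ± 0.06, adjusted p = 0.0351). The TAP1 call was lost in 8 of 15 settings, among them without any 1 of the USP13 control libraries and without replicate 2 or 3 of the ZHX2 control, and over the 15 the adjusted p from edgeR or DESeq2 lay between 0.0177 and 0.201.

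The promoters of ISG15 and IFI27 are shown because they had the largest differences of this list. The core of the interferon-stimulated response element, searched as a pair of GAAA runs spaced by 2 bases of any kind on either strand, stood in the windows of 16 of 23 members with one (69.6%), of 4.38% of all genes with a window and of 3.92% of the tested ones. The matches overlap each other in ISG15 (chr1:1013375-1013464, plus strand), and in IFI27 (chr14:94110626-94110715, plus strand) they lie on both strands.
ISG15: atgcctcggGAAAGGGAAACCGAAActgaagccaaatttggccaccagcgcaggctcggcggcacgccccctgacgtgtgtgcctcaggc
IFI27: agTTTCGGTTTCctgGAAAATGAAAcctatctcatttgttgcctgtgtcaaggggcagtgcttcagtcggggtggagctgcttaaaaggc
Both stretches end before the transcript start, and the capitals mark the matches.

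Other inflammatory genes did not follow the interferon genes. Of 22 tested NF-kB targets, cytokines and chemokines 16 were lower, 5 of them at least 2-fold, and 3 were higher, with a median of -0.65. CXCL8, a neutrophil chemokine, stood at 0.996, 0.925 and 1.26 CPM in the USP13 control and 8.35, 9.28 and 9.85 CPM in the ZHX2 control (log2 difference -3.12 ± 0.22, adjusted p = 9.83e-11). SOD2, the mitochondrial superoxide dismutase, stood at 228, 232 and 230.3 CPM against 692, 688 and 692 CPM (log2 difference -1.58 ± 0.049, adjusted p = 4.55e-17). CCL5, which interferon pathways can also raise, went the other way, at 61.4, 62.6 and 66.2 CPM against 12.1, 12.9 and 13.8 CPM (log2 difference 2.29 ± 0.089, adjusted p = 1.98e-15). CXCL8 and CCL5 therefore separated the sets in opposite directions.

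Immediate early genes were mostly higher in the USP13 control. They encode transcription factors that growth factors, stress and handling of cells induce within minutes, together with phosphatases that limit the signal. Of 30 tested genes 18 were higher, 14 of them at least 2-fold, and 8 were lower, with a median of 0.99. EGR1 stood at 1014, 1027 and 1157 CPM in the USP13 control and 154, 138 and 145 CPM in the ZHX2 control (log2 difference 2.87 ± 0.061, adjusted p = 6.47e-20). FOS stood at 556, 524 and 608 CPM against 62.3, 63.7 and 61.4 CPM (log2 difference 3.17 ± 0.064, adjusted p = 2.58e-20). FOSB stood at 591, 578 and 699.6 CPM against 21.4, 22.5 and 19.6 CPM (log2 difference 4.88 ± 0.082, adjusted p = 1.44e-21). In all 3 genes the lowest USP13 control library was above the highest ZHX2 control library several-fold. Among the phosphatases DUSP1 (log2 difference 1.74 ± 0.055, adjusted p = 7.17e-17) and DUSP6 (log2 difference 3.21 ± 0.11, adjusted p = 1.09e-16) were higher and DUSP4 was lower (log2 difference -2.09 ± 0.27, adjusted p = 8.42e-07). ETV5 and PHLDA1 were lower (-1.23 and -1.05), as was FOSL1 (-0.89).

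The CArG box, the serum response element bound by SRF, stood in the windows of 2 of 22 members with one (9.09%), of 1.60% of all genes with a window and of 1.56% of the tested ones, so that most of these genes hold no match in this window. EGR1 (chr5:138465381-138465470, plus strand) and EGR2 (chr10:62816367-62816456, minus strand) are the members with a match.
EGR1: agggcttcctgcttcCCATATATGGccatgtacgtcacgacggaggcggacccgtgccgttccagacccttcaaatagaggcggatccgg
EGR2: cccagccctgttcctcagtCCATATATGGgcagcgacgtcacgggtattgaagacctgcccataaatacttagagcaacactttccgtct
YAP targets were more often lower, with 13 of 21 tested genes lower and 2 higher (median -0.28). AXL, a receptor kinase of this list, was lower (log2 difference -1.7 ± 0.058, adjusted p = 2.04e-16). CCN2, 1 of the 2 higher genes, stood at 378, 389 and 419 CPM in the USP13 control and 56.3, 58.1 and 67.1 CPM in the ZHX2 control (log2 difference 2.71 ± 0.069, adjusted p = 1.98e-18). ID1 of the TGF-beta list stood at 943, 936 and 979 CPM against 241, 256 and 231 CPM (log2 difference 1.97 ± 0.052, adjusted p = 3e-18). Of 18 tested TGF-beta targets 10 were higher, 5 of them at least 2-fold, and 6 were lower, 4 of them at least 2-fold. Their log2 differences ran from -2.62 to 2.23.

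Cholesterol synthesis genes were mostly higher in the USP13 control. SREBP2 raises these enzymes and the LDL receptor when sterol in the endoplasmic reticulum falls. All 24 listed genes were tested, 21 were higher, 4 of them at least 2-fold, and 3 were lower, 1 of them at least 2-fold. The median was 0.58. The lowest log2 difference of the list, -1.67, was larger in size than any rise in it. HMGCS1, the enzyme before HMG-CoA reductase, stood at 241, 257 and 211 CPM in the USP13 control and 111, 111 and 106 CPM in the ZHX2 control (log2 difference 1.11 ± 0.068, adjusted p = 5.88e-12). SQLE, the squalene epoxidase, stood at 284, 273 and 249.7 CPM against 127, 117 and 130.2 CPM (log2 difference 1.1 ± 0.062, adjusted p = 1.69e-12). Ranges did not overlap in either. IDI1 (1.03) and FDFT1 (0.96) of the same pathway had log2 differences near 1, whereas SREBF2, which encodes SREBP2, was lower (log2 difference -0.19 ± 0.048, adjusted p = 0.00165), a call lost with GC and length trends removed (SREBF2 -0.04, adjusted p = 0.388). Of fatty acid genes FASN (log2 difference 0.86 ± 0.049, adjusted p = 1.82e-12) and ACSS2 (log2 difference 1.04 ± 0.079, adjusted p = 2.42e-10) were higher, with 7 of 17 tested genes higher and 4 lower in all. The sterol regulatory element matched in the windows of 1 of 18 cholesterol genes (5.56%), of 1.39% of all genes with a window and of 1.45% of the tested ones.

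Genes of the renal epithelium and of the mesenchymal state differed gene by gene. Of 12 tested kidney lineage factors 7 were higher and 3 lower (median 0.32), and of 17 tested proximal tubule genes 9 were higher and 5 lower (median 0.64). PAX2 stood at 95.3, 101 and 121 CPM in the USP13 control and 54.8, 58.8 and 59.1 CPM in the ZHX2 control (log2 difference 0.88 ± 0.08, adjusted p = 5.15e-09). PDZK1, a scaffold of the brush border, stood at 388, 391 and 390.2 CPM against 175, 176 and 169.9 CPM (log2 difference 1.17 ± 0.052, adjusted p = 2.32e-14). The kidney cadherin CDH16 (1.39) was higher too, while the peptidase MME (-2.64), the adhesion molecule VCAM1 (-1.87) and the sodium pump subunit FXYD2 (-0.84) were lower. POU3F3, a nephron factor, had 2 counts in 1 USP13 control library and 4.65, 4.49 and 5.17 CPM in the ZHX2 control.

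Matrix and protease genes were more often lower than higher. Of 25 tested matrix and mesenchymal genes 14 were lower and 4 higher (median -0.34), and of 15 tested proteases and plasminogen genes 9 were lower and 3 higher (median -0.70). MMP2, which degrades basement membrane, stood at 22.2, 22.8 and 18.8 CPM in the USP13 control and 301, 309 and 298 CPM in the ZHX2 control (log2 difference -3.83 ± 0.074, adjusted p = 1.48e-20). TNC and COL12A1, matrix proteins of remodelled tissue, were lower (-3.51 ± 0.27 and -3.61 ± 0.19), and COL4A1 of the basement membrane was higher (log2 difference 0.71 ± 0.049, adjusted p = 4.84e-11). The receptor MET was lower (log2 difference -0.91 ± 0.072, adjusted p = 5.4e-10), as was EGFR (log2 difference -0.5 ± 0.089, adjusted p = 5.82e-05), and MYC was lower (log2 difference -0.35 ± 0.061, adjusted p = 4.82e-05).

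Stress and housekeeping lists went in both directions. Of 24 tested ATF4 targets and amino acid genes 17 were lower and 2 higher (median -0.57), with DDIT4, an inhibitor of mTORC1 that hypoxia also raises, at 322, 322 and 397 CPM in the USP13 control and 1189.6, 1275 and 1158 CPM in the ZHX2 control (log2 difference -1.8 ± 0.067, adjusted p = 8.74e-16). Of 22 p53 targets 12 were lower and 4 higher (median -0.31). Of 26 proteasome subunits 15 were higher and 3 lower (median 0.19), and of 34 respiratory chain subunits 19 were higher and 5 lower (median 0.20). TXNIP, a glucose-sensing arrestin, stood at 35.5, 31.1 and 39.9 CPM against 103, 96.9 and 101 CPM (log2 difference -1.5 ± 0.082, adjusted p = 8.46e-13). The metallothionein and zinc list had 6 of 7 tested genes higher and none lower, with MT1X at 24.6, 26 and 29.1 CPM against 11.3, 11.7 and 12.7 CPM (log2 difference 1.16 ± 0.11, adjusted p = 7.67e-09), among near-identical family members whose counts are estimates. MALAT1, a nuclear long non-coding RNA, stood at 948, 903 and 1086 CPM against 278, 177 and 289.8 CPM (log2 difference 1.98 ± 0.11, adjusted p = 2.06e-12).

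Ribosomal protein genes were lower in 50 of 77 tested cases and higher in 8, with a median of -0.27. RPS29, among the shortest, stood at 41.2, 48.3 and 47.1 CPM in the USP13 control and 98.5, 138 and 123 CPM in the ZHX2 control (log2 difference -1.4 ± 0.096, adjusted p = 4.66e-11), and RPL37 was lower (log2 difference -1.2 ± 0.081, adjusted p = 3.11e-11). Fragments were longer in the USP13 control, as given above. With the deposited effective lengths as offsets the median of the list was -0.18.

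The same difference was then read in the 12 knockdown libraries, which the choice of the control sets did not use. The mean of sh50 and sh52 was compared with the mean of sh43 and sh45 in a fit of all 18 libraries. Of 14200 genes tested 11077 (78.0%) differed, 40.7% higher in the USP13 experiment and 37.3% lower. The hairpins themselves differ here, so that experiment and knockdown cannot be told apart in this comparison. Of the 1457 genes at least 2-fold apart between the control sets, 1334 (91.6%) passed in the same direction, 30 passed in the opposite direction and 93 did not pass. A difference of at least 2-fold in the same direction was met by 1162 genes, 79.8% of the control list. They made up 42.0% of the 2765 genes at least 2-fold apart between the knockdown libraries among the 13486 tested in both fits. Over all 14200 genes of the larger fit, 3184 were at least 2-fold apart between the knockdown libraries.

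**Figure D3:**
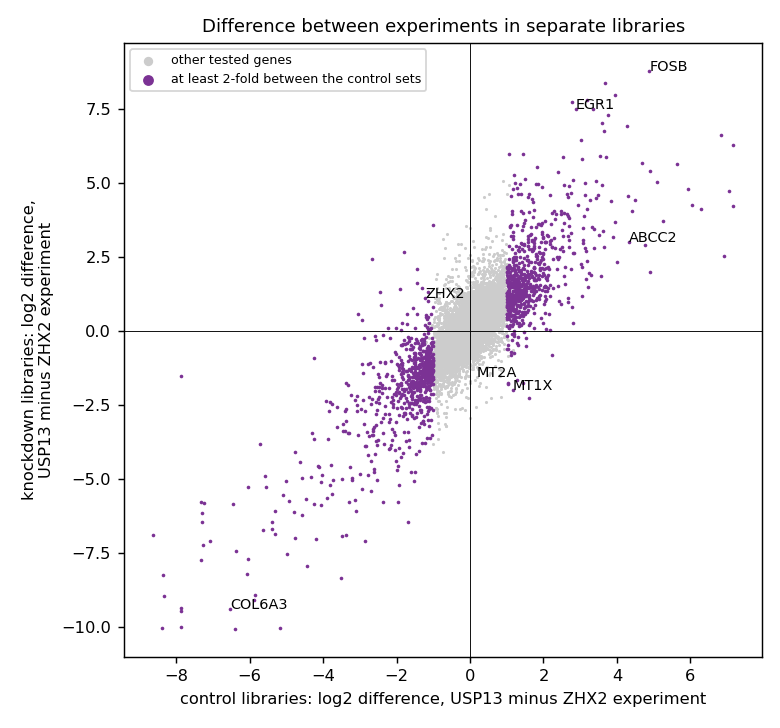
Log2 difference between the experiments in the 6 control libraries (x axis) and in the 12 knockdown libraries (y axis) for each tested gene. Purple points are genes at least 2-fold apart between the control sets, of which 1334 passed in the same direction in the knockdown libraries. ZHX2, the knockdown target, and MT1X lie in the quadrants of opposite sign.

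The lists described above were counted in these libraries too. Replication genes were lower in 26 of 28 and higher in 1 (median -1.15), mitotic genes lower in 26 of 26 (median -1.33), interferon genes higher in 25 of 30 and lower in 3 (median 1.09) and cholesterol genes higher in 20 of 24 and lower in 2 (median 0.44). HIF targets were lower in 20 of 30 and higher in 6 (median -0.65). The proteasome subunits went the other way from the controls, with none higher and 20 of 26 lower (median -0.26). Of the metallothionein and zinc genes 2 of 7 were higher and 4 lower (median -0.23). Immediate early genes were higher in 16 of 30 and lower in 12 (median 0.79), respiratory chain subunits higher in 16 of 34 and lower in 13 (median 0.056), and p53 targets higher in 9 of 22 and lower in 12 (median -0.22). NF-kB targets were lower in 17 of 22 and higher in 4 (median -1.36), ATF4 targets lower in 21 of 24 and higher in 2 (median -0.93), and ribosomal proteins lower in 64 of 77 and higher in 7 (median -0.40). Proximal tubule genes were higher in 12 of 17 and lower in 4 (median 0.96), matrix genes lower in 15 of 25 and higher in 7 (median -0.33), and histone genes higher in 9 of 9 (median 1.81).

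Single genes show how far the experiments lay apart beside the hairpins. MCM7 had means of 78.7, 113 and 85.5 CPM in the control, sh50 and sh52 libraries of the USP13 experiment and of 255, 285 and 266 CPM in the control, sh43 and sh45 libraries of the ZHX2 experiment. All 9 libraries of the USP13 experiment were below all 9 of the ZHX2 experiment. EGR1 had means of 1049, 1137 and 1086 CPM and of 144, 3.53 and 9.88 CPM, so that the ZHX2 control stood between the USP13 experiment and the ZHX2 hairpins. TGM2 had means of 8.73, 7.4 and 6.81 CPM and of 277, 1299.7 and 1310.1 CPM. For TGM2, too, the ZHX2 control was intermediate.

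**Figure D4:**
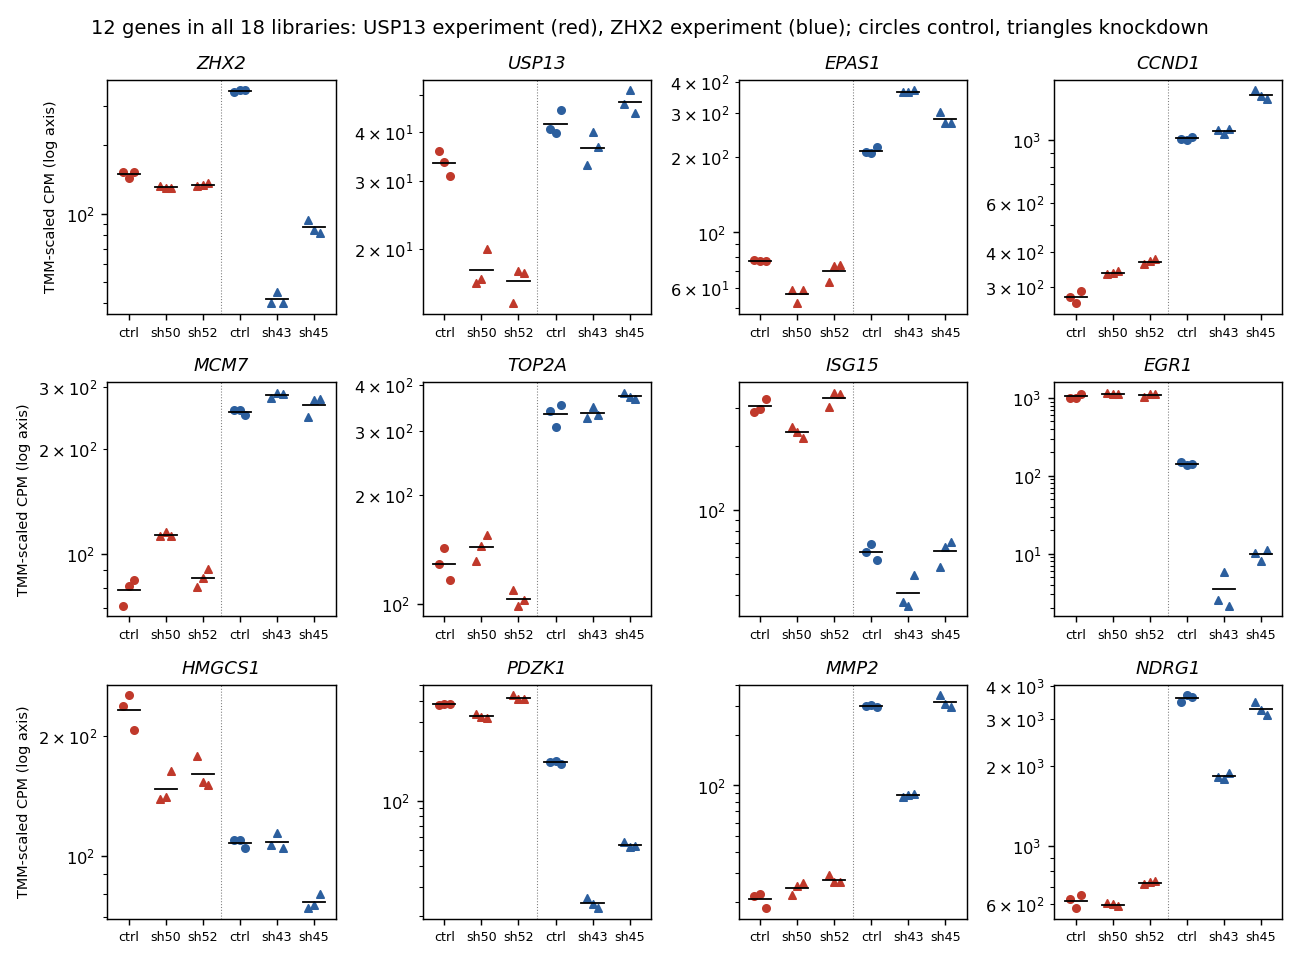
TMM-scaled CPM on a log axis of 12 genes in each of the 18 libraries, by group, with circles for control and triangles for knockdown libraries and a bar at each group mean. Red is the USP13 experiment and blue the ZHX2 experiment. MCM7, TOP2A, CCND1, EPAS1 and NDRG1 are lower in all 9 USP13 experiment libraries, and ISG15, EGR1 and PDZK1 higher.

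The distance between the control sets was set beside the response to each hairpin against its own control in the fit of all libraries. The control sets differed in 8017 of 14200 genes (56.5%), by at least 2-fold in 1641 (11.6%), with a median absolute log2 difference of 0.32. Genes that differed from their own control made up 23% for sh50, 13.8% for sh52, 65.4% for sh43 and 48.6% for sh45. Differences of at least 2-fold were met by 165 genes under sh50 (1.16%), 92 under sh52 (0.648%), 2256 under sh43 (15.9%) and 1053 under sh45 (7.42%). The median absolute log2 differences were 0.16, 0.14, 0.43 and 0.28 in the same order. Each hairpin comparison shares control libraries with the comparison of the controls, so no overlap between these lists is given. Without replicate 2 of the USP13 control the count for sh52 was 55. The first principal component of all 18 libraries took 63.8% of the variance and placed the 9 USP13 experiment libraries between -58.2 and -51.1, the ZHX2 controls between 20.1 and 22, the sh45 libraries between 56.3 and 57.3 and the sh43 libraries between 80.2 and 82.7.

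The difference between the control sets was also laid out along the chromosomes, with gene positions from the RefSeq table of GRCh38.p14. Chromosome 2 had the highest median, 0.24 over 926 tested genes, and 443 of these (47.8%) were higher in the USP13 control and 148 lower. Chromosome 1 had a median of 0.17 over 1342 genes and chromosome 10 of 0.16 over 540 genes. In windows of 10 Mb with at least 10 tested genes the median was above 0 in 25 of 25 windows of chromosome 2, 23 of 23 of chromosome 1 and 14 of 14 of chromosome 10. Over all chromosomes it was above 0 in 161 of 289 windows. Chromosome 15 had the lowest median, -0.15 over 449 genes, followed by chromosome 14 with -0.12 over 424 genes.

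In the knockdown libraries the medians had the same signs, at 0.25 for chromosome 2, 0.14 for chromosome 1 and 0.28 for chromosome 10, where it was larger than in the controls. Chromosome 15 was nearer to 0 there, at -0.061, and chromosome 14 stood at -0.10. The medians of each hairpin against its own control on chromosome 2 were -0.018 (sh50), 0 (sh52), 0.047 (sh43) and -0.067 (sh45), and on chromosome 10 sh45 gave -0.20. Over 13205 genes with a value, the control difference had a Spearman correlation of -0.157 with GC content. Chromosome medians were not recomputed with the GC trend removed, so its part in them was not tested. DNA copy number was not measured.

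**Figure D5:**
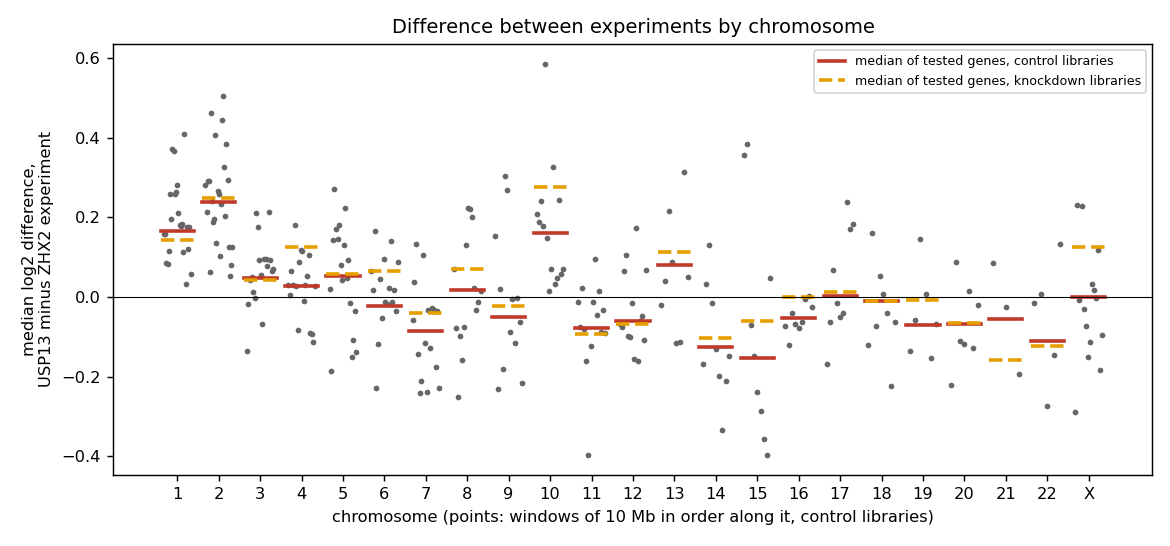
Median log2 difference between the experiments (y axis) by chromosome (x axis). Grey points are windows of 10 Mb in order along each chromosome in the control libraries, red bars the medians of all tested genes of the chromosome in the control libraries, and dashed orange bars those in the knockdown libraries. All windows of chromosomes 1, 2 and 10 lie above 0.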

How the data were processed

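Gene expression was measured by RNA-seq in 18 libraries of 786-O cells, of which the 6 control libraries are compared here. Per the submitters' processing notes the tools were cutadapt 1.12, STAR 2.5.2b, Salmon 0.11.3 and DESeq2 1.14.1, on hg19. The authors deposited, per the file headers, an estimated count, a TPM value, a length and an effective length for each transcript and library, made with Salmon. The libraries were unstranded, so that overlapping antisense genes cannot be told apart.

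The estimated counts of 60422 transcripts were summed to 27063 gene symbols through RefSeq names, and all values were whole within 1e-06. Transcripts with no gene name (437) took 0.102 to 0.115% of the control counts and were left out. TPM values were summed per gene to describe levels. Control sets were compared with edgeR 4.0.16 in R 4.3.3 (TMM factors, filterByExpr, quasi-likelihood F-test, Benjamini-Hochberg adjusted p under 0.05), on 13486 genes in the 6 control libraries. A fit of all 18 libraries tested 14200 genes and gave the knockdown comparison. Standard errors were derived from the log2 difference and its F statistic. The test was checked on simulated counts with 200 changed genes.

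Genes are named if they lie among the 15 largest called differences in each direction (at least 2-fold, no overlap, mean of at least 10 CPM) or belong to a listed pathway. From most lists the called genes were drawn from those with the largest differences in each direction, so they need not be typical of their list. CDH1, LDHA, VIM, KRT8, KRT19 and CLDN4 were chosen for levels. Some listed genes are not reported here. The members and lists were chosen with earlier results of these data known. Replicate numbers did not pair the libraries. Alternatives were other scalings, DESeq2 1.42.0, no filter, a replicate block, effective lengths, GC and length trends and leaving out each library. Gene positions and promoters came from RefSeq tables of GRCh38.p14, so no coordinates were joined to the hg19-based files.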

Additional observations from a re-analysis of the deposited data

Results flagged for a closer look

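Several named genes differed between the experiments in one direction in the control libraries and in the other in the knockdown libraries. Over all genes tested in both fits 600 (4.45%) had such opposite calls. The difference given for each gene is the control difference minus the knockdown difference, tested as an interaction in edgeR with Benjamini-Hochberg adjustment over 14200 genes. Since opposite calls chose these genes, on the same libraries, that test adds no independent support. It passed for 43.4% of all genes, and knockdown effects are part of this contrast.

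ZHX2, the target of the ZHX2 experiment, was lower in the USP13 control (-1.22). It was higher in the USP13 knockdown libraries than in the ZHX2 knockdown libraries, which gave a difference of -2.36 on the log2 scale (adjusted p = 1.91e-24). Of the metallothioneins, which bind zinc and copper, 3 tested genes were higher in the USP13 control. The same 3 were lower in the USP13 knockdown libraries than in the ZHX2 knockdown libraries, while MT1F was higher in both comparisons (1.77 and 0.89). Between the control sets MT1L had 19, 34 and 33 counts in the ZHX2 control and 0 in the USP13 control. The difference was 3.15 for MT1X (adjusted p = 1.07e-21), 1.72 for MT2A (adjusted p = 1.98e-18) and 1.25 for MT1E (adjusted p = 2.59e-14). HMOX1, the haem oxygenase, gave 1.71 (adjusted p = 4.38e-16) and PSAT1 of serine synthesis 1.17 (adjusted p = 5.7e-16). The control call was lost for MT2A without USP13 control replicate 2 (0.159, adjusted p = 0.0639) or ZHX2 control replicate 1 (0.104, adjusted p = 0.176), and for PSAT1 with GC and length trends removed (0.094, adjusted p = 0.0918).

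Other genes were lower in the USP13 control but higher in the USP13 knockdown libraries than in the ZHX2 knockdown libraries. FXYD2 gave -2.13 (adjusted p = 3.37e-20), JUP of cell junctions -1.59 (adjusted p = 9.22e-13) and GABARAPL1 of autophagy -1.44 (adjusted p = 1.24e-17). The glucocorticoid receptor NR3C1 gave -1.01 (adjusted p = 2.43e-12), EGFR -0.78 (adjusted p = 2.3e-07) and SREBF2 -0.73 (adjusted p = 9.35e-13). CCND3 was higher in the USP13 control but lower in the USP13 knockdown libraries than in the ZHX2 knockdown libraries, with 0.58 (adjusted p = 3.08e-05).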

How the results depend on the processing

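Of the 1457 genes at least 2-fold apart between the control sets, 1252 to 1456 stayed at least 2-fold apart in the same direction under 15 alternative settings, and none changed sign. The lowest number came from testing protein-coding genes only, which leaves out other genes by construction. The share of higher genes among the calls lay between 48.97 and 50.21%. Replicate numbers did not pair the libraries (correlations of same-numbered deviations 0.045, -0.007 and -0.053), and with a replicate block 7343 genes differed, 1447 of them at least 2-fold. The count of genes at least 2-fold under sh52, 92, ranged from 55 to 97 when 1 control library was left out. As a share of protein-coding counts the mitochondrial ribosomal RNAs differed by 1.45 percentage points and histone genes by 0.00953. With effective lengths as offsets NEAT1 went from 0.305 to -0.174 and RPS27, which had not passed the test at -0.051, to 0.199. The cause was not tested. Of 1976 recomputed values for 132 named genes 1946 kept direction and call, 25 lost a call, 3 gained one and 2, given above, reversed. Depth limits genes of a few counts, such as CA9, most.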

Other observations

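A few genes were counted in one control set alone. With at least 10 counts in each of 3 libraries against 0 in each library of the other set, 5 genes were found in the USP13 control and 15 in the ZHX2 control. Folds are lower bounds against a floor of 3 counts per library. SPOCK3, a testican proteoglycan, had 16, 23 and 16 counts in the USP13 control and was at least 5.80-fold higher there. SERPINB9, an inhibitor of granzyme B, had 46, 52 and 47 counts in the ZHX2 control and was at least 16.9-fold higher there. MAGEA3, a cancer-testis antigen, had 28, 47 and 46 counts and was at least 14-fold higher in the ZHX2 control, and the neurotrophin receptor NTRK3, with 36, 32 and 49 counts, at least 13.5-fold.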
